A study of Rattus norvegicus with 47 samples.

Results

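Kidneys of rats that had carried tungsten (W) pellets for 12 months were compared with kidneys of rats that had carried tantalum (Ta) pellets for the same time. The comparison took every library that the labels assign to either metal, 8 for W and 8 for Ta, which is 16 of the 47 libraries in the series. All genes of the count table were considered, 22525 in number, of which 15868 had enough counts to be tested. Rats had been assigned to a metal at random, and Ta, named inert in the series description, was the reference. The labels do not give strain, sex or age, and every animal in both groups had had pellets implanted by surgery. The titles number the libraries 81 to 88 for W and 73 to 80 for Ta, so anything that followed these numbers and the metal itself cannot be told apart. The tungsten libraries were also read in subsets, replicates 1-4 (here W 1-4) and replicates 5-8 (W 5-8), to see whether changes held in each. The labels attach no meaning to this division, which was set with earlier results of these data known.

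Tungsten is a dense metal used in alloys and munitions, and fragments of such materials can stay in tissue after injury. Tungsten that dissolves from a fragment is carried in blood and leaves the body largely through the kidney. There the proximal tubule, which reabsorbs most of the filtered solutes, depends on mitochondrial respiration and is a known target of toxic metals. Kidney identity was plain in all 16 libraries. Umod, the main protein of the thick ascending limb, was at 1716 CPM (counts scaled to the same library total) or more in each of them. The phosphate transporter Slc34a1 of the proximal tubule was at 1621 CPM or more.

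Total counts were 23259750 to 35775818 per library, and 14878 to 16604 genes had at least 1 count. Mitochondrially encoded genes took 17.2% to 25.1% of the counts. As a measure of RNA composition, the mean log2 CPM of a list of very large proteins was subtracted from that of cytosolic ribosomal protein genes. This ribosomal balance was 1.16 to 2.07 in Ta, 1.59 to 1.99 in W 1-4 and 2.00 to 2.49 in W 5-8, so 3 of the W 5-8 libraries were above every Ta library. Ta replicate 4 and W replicate 5 lay at opposite ends of the first principal component, with W replicate 7 and Ta replicate 6 next to them.

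In tungsten kidneys 283 of the 15868 tested genes differed from tantalum kidneys at an adjusted p under 0.05, which is 1.78% of those tested. Of these, 225 genes (1.42%) were higher and 58 genes (0.366%) were lower. The higher genes included 15 nuclear genes of the respiratory chain, with genes of ribosomes, RNA splicing and protein folding, and their median log2 fold change was 0.41. The lower genes had a median of -0.74 and included genes of smooth muscle, matrix and immune cells. In all, 39 of the higher and 11 of the lower genes belonged to one of the 45 gene lists read here. Over all tested genes the median log2 fold change was -0.03. All adjusted p-values are from edgeR's quasi-likelihood test with Benjamini-Hochberg adjustment over all tested genes. The count rested on few libraries. Leaving out single W libraries gave 5 genes (replicate 5), 15 (replicate 8) and 46 (replicate 7), and 0.764% of the tested genes for replicate 6. Leaving out Ta replicate 4 gave 181, and Ta replicate 6 0.815% of the tested genes. The count rose to 604 (W replicate 3) and 518 (W replicate 2), and to 574, 544, 435 and 431 for Ta replicates 8, 5, 7 and 1. DESeq2 called 764 genes. Without Ta replicates 4, 5 and 6 together 1 gene was called, without W replicates 5 and 7 together 5 genes, and with the ribosomal balance added to the model 8 genes.

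Trappc4, a subunit of the TRAPP complexes that tether transport vesicles, had the smallest p among the higher genes. It measured 17.3 to 20.4 CPM (median 18.1) in Ta, 26.7, 23.9, 23.2 and 19.3 CPM in W 1-4 and 28.6, 23.1, 28.6 and 30.7 CPM in W 5-8. All W libraries except replicate 4 were above every Ta library. The log2 fold change of Trappc4 was 0.46 ± 0.08 (SE; adjusted p = 0.0063), with 0.33 in W 1-4 and 0.58 in W 5-8. Higd2a, an assembly factor of respiratory complex IV, measured 30.3 to 50.5 CPM (median 37.8) in Ta, 49.3, 49.8, 48.6 and 57.6 CPM in W 1-4 and 62.0, 65.0, 55.5 and 65.7 CPM in W 5-8. Only the highest Ta library overlapped with the W range, and the log2 fold change was 0.59 ± 0.10 (SE; adjusted p = 0.0064). Hook2, which links cargo to microtubule motors, rose by 0.34 ± 0.06 (SE; adjusted p = 0.0088), from 90.3 to 105 CPM (median 94.3) in Ta to 102.2 to 141.9 (median 122.6) in W.

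Several of the leading higher genes belong to mitochondria. Cox7c, a small subunit of complex IV, measured 120.8 to 176 CPM (median 145) in Ta, 259, 219, 181 and 229 CPM in W 1-4 and 237, 214, 182 and 215 CPM in W 5-8. Its groups did not overlap, and the log2 fold change was 0.59 ± 0.11 (SE; adjusted p = 0.02). Immp1l, a protease of the inner membrane that cuts targeting signals, measured 9.73 to 15.8 CPM (median 14.2) in Ta, 22.7, 20.1, 18.7 and 19.1 CPM in W 1-4 and 20.7, 19.7, 23.6 and 18.0 CPM in W 5-8. Again the W and Ta libraries did not overlap, with a log2 fold change of 0.57 ± 0.11 (SE; adjusted p = 0.02). Ndufa1, a subunit of complex I, also separated the groups, at 58.1 to 84.3 (median 76.5) CPM in W against 42.2 to 56.1 CPM (median 53.2) in Ta (adjusted p = 0.02). Tomm7, part of the import pore of the outer membrane, rose by 0.57 on the log2 scale, Mrps21, a mitochondrial ribosomal protein, by 0.53 and Tmem256 by 0.52 (adjusted p = 0.025, 0.026 and 0.025). Outside mitochondria, Fcf1, a factor of ribosomal RNA processing, rose by 0.52, Aldh16a1 by 0.34 and Tmem238 by 0.49 (adjusted p = 0.026, 0.026 and 0.026). Among the 61 genes named here that passed the test in W against Ta, 5 passed whichever single library was left out: Trappc4, Higd2a, Hook2, Immp1l and Ndufa1. Leaving out W replicate 5 ended the call of 56 of the 61. None changed sign in the settings tried, though with DESeq2 the sign was read for only 60 of the 61.

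The largest increases were of several kinds. Alb, serum albumin, had a log2 fold change of 4.21 ± 1.13 (SE; adjusted p = 0.046), but 1 library made most of it. W replicate 2 was at 95.9 CPM, the other W libraries were at 0.364 to 6.72 CPM and Ta at 0.195 to 1.51 CPM (median 0.774). Without that library the log2 fold change was 1.85 (adjusted p = 0.23). Rps29, a ribosomal protein, was highest in W 1-4, at 388, 380.3, 296 and 324 CPM, against 207, 201, 187 and 251 CPM in W 5-8 and 133.7 to 178 CPM (median 155) in Ta. Every W library exceeded every Ta library, with a log2 fold change of 0.84 ± 0.20 (SE; adjusted p = 0.033). Ndufa3, a complex I subunit, was likewise higher in W 1-4 (96.2, 86.2, 84.04 and 96.8 CPM) than in W 5-8 (86.04, 73.3, 52.3 and 63.0 CPM), against 38.1 to 54.8 CPM (median 43.6) in Ta (adjusted p = 0.028). For neither gene did the difference between the W subsets pass (adjusted p = 0.13 and 0.37). Sdsl, related to serine dehydratase, was instead higher in W 5-8, at 47.9, 26.4, 29.1 and 29.5 CPM. It was at 17.7, 18.4, 19.0 and 19.0 CPM in W 1-4 and 10.6 to 20.9 CPM (median 15.2) in Ta (adjusted p = 0.047 for W against Ta). Its difference between the W subsets did not pass either. Chchd2, Heatr4, Igip and Pomc had log2 fold changes of 1.07, 0.89, 0.74 and 0.68 at low levels, with Ta medians of 0.737 to 6.54 CPM (adjusted p = 0.043, 0.034, 0.032 and 0.041). Ribosomal protein genes have many near-identical copies in the genome, and how reads with several matches were counted is not given, so the values of Rps29 are uncertain.

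**Figure D1:**
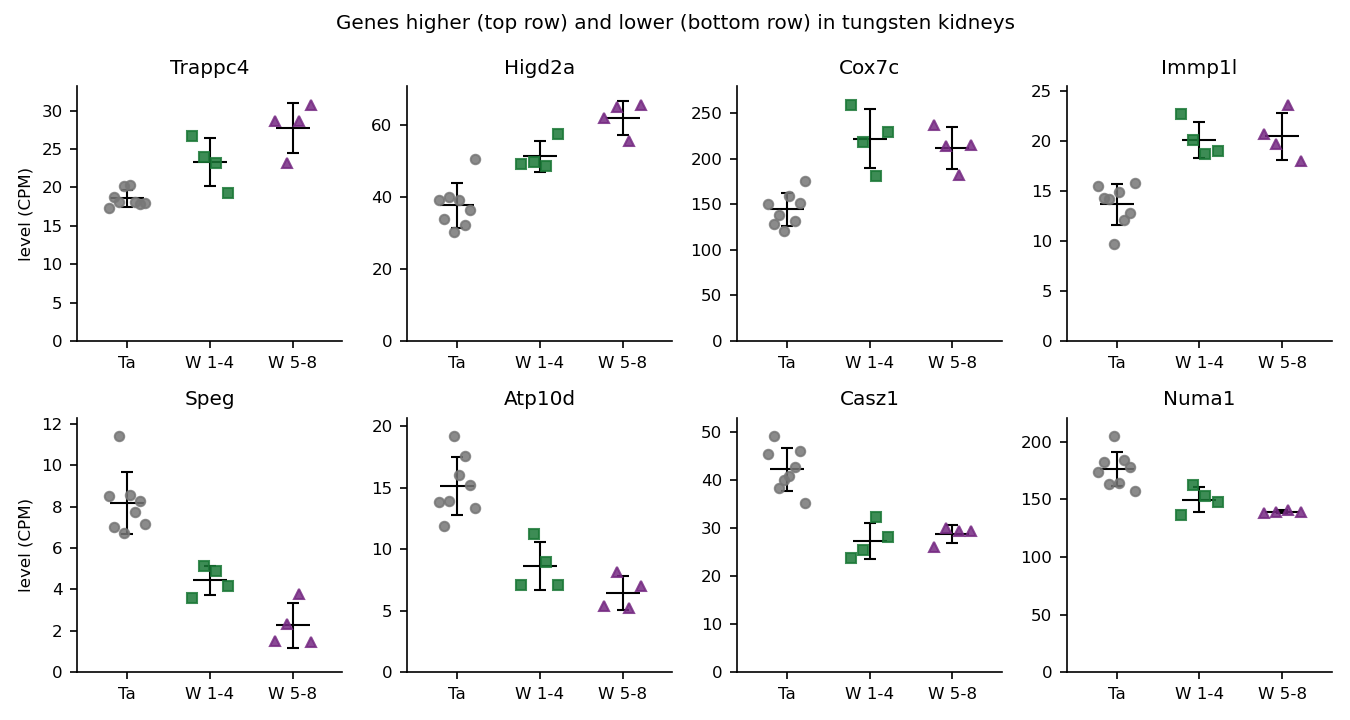
Levels in CPM (vertical axis) of 4 genes higher and 4 genes lower in tungsten kidneys, for Ta, W 1-4 and W 5-8; points are libraries, and bars are the mean with the SD. Every Cox7c and Immp1l value in W lies above every Ta value, and every Speg, Atp10d and Casz1 value lies below.

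Speg, a kinase of striated and smooth muscle, had the smallest p among the lower genes. It measured 6.74 to 11.4 CPM (median 8.01) in Ta, 3.59, 5.11, 4.87 and 4.19 CPM in W 1-4 and 1.51, 2.32, 3.78 and 1.46 CPM in W 5-8. No W library reached the lowest Ta library, and W 5-8 were lower than W 1-4 except for replicate 7. The log2 fold change was -1.28 ± 0.27 (SE; adjusted p = 0.026). Atp10d, a lipid flippase, measured 11.9 to 19.2 CPM (median 14.6) in Ta, 7.14, 11.3, 8.96 and 7.14 CPM in W 1-4 and 5.38, 8.14, 5.26 and 7.02 CPM in W 5-8 (log2 fold change -1.005 ± 0.23 (SE), adjusted p = 0.031). Casz1, a zinc finger transcription factor, measured 35.2 to 49.1 CPM (median 41.8) in Ta, 23.8, 25.4, 32.2 and 28.1 CPM in W 1-4 and 26.2, 30.1, 29.5 and 29.5 CPM in W 5-8 (log2 fold change -0.59 ± 0.14 (SE), adjusted p = 0.034). For both genes all 8 W libraries were below all 8 Ta libraries, and W 1-4 and W 5-8 overlapped each other.

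The other lower genes with the smallest p covered chromatin, signalling and immune functions. Arid1b, a subunit of the SWI/SNF remodelling complex, was also without overlap, at 37.5 to 62.8 (median 52.6) CPM in W against 63.3 to 84.7 CPM (median 69.7) in Ta (log2 fold change -0.42, adjusted p = 0.032). Numa1, which organises the mitotic spindle, fell by 0.285 on the log2 scale, from 157 to 205 CPM (median 176) in Ta to 136.2 to 162 (median 139.9) in W (adjusted p = 0.032). Ptger1, a prostaglandin E2 receptor, had a log2 fold change of -0.44, Spry1, an inhibitor of growth factor signalling, -0.70, and Zmym4 -0.45 (adjusted p = 0.032 each). Cavin1, which builds the caveolae of vessel, muscle and fat cells, fell by 0.764 and Rarg, a retinoic acid receptor, by 0.487 on the log2 scale (adjusted p = 0.033 and 0.035). Eln, the elastin of artery walls, measured 9.91 to 30.6 CPM (median 14.9) in Ta, 4.82, 9.41, 11.2 and 6.91 CPM in W 1-4 and 3.78, 5.85, 2.22 and 4.16 CPM in W 5-8, and its log2 fold change was -1.44 (adjusted p = 0.045). Hap1 was low throughout, with a Ta median of 1.72 CPM, and had a log2 fold change of -1.29 (adjusted p = 0.048).

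Taken separately, the subsets of W gave different numbers of calls. In W 1-4 against all 8 Ta libraries 0 genes passed (0.0%), the smallest adjusted p being 0.0999, while 1082 genes had an unadjusted p under 0.05, and DESeq2 called 7 genes. In W 5-8 against the same Ta libraries 2736 genes passed (17.2%), of which 1297 (8.17%) were higher and 1439 (9.07%) lower. That number was 636 without W replicate 5 and 93 without W replicates 5 and 7. Between W 1-4 and W 5-8 themselves 266 genes differed (1.68%), 181 (1.14%) being higher in W 1-4 and 85 (0.536%) higher in W 5-8. When W replicates 1, 2, 3, 4, 5 and 8 were left out in turn, 1, 3, 6, 130, 1 and 18 genes differed, and leaving out replicate 7 left 0.795% of the tested genes. DESeq2 called 743 genes here, and 1028 were called in a fit of W and Ta libraries only.

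Of the 283 genes called in W against Ta, 283 had the same sign in W 1-4 and in W 5-8, against 67.2% of all tested genes. A stricter reading asked for an unadjusted p under 0.05 in each subset, which 216 of the 283 met, 164 of the 225 higher and 52 of the 58 lower genes, against 3.28% of all tested genes. At an adjusted p under 0.05 none held in both subsets with this test, since 271 passed in W 5-8 and 0 in W 1-4, and DESeq2 gave 3 in both. Both subsets enter the W mean that selected these genes and share the Ta libraries, so these counts describe the selected genes and are not a separate test. With separate controls, W 1-4 against Ta 1-4 and W 5-8 against Ta 5-8, the same sign was found for 283 of the 283, against 65.6% of all tested genes, and an unadjusted p under 0.05 in both for 196, against 2.24%. These counts too describe genes selected on the same W and Ta libraries. Against all 8 Ta libraries the changes were smaller in W 1-4 for 253 of the 283 genes. Their median in the direction of the call was 0.32 on the log2 scale against 0.54 in W 5-8. Over all tested genes, in the direction of W against Ta, 11168 of 15868 were smaller in W 1-4, with medians of 0.145 and 0.319. With separate controls 206 of the 283 were smaller in W 1-4, with medians of 0.364 and 0.485. For 6 of the 283 genes the difference between the W subsets passed its own test, a similar share to the 1.68% of all tested genes. They were Crb3, Mien1, Polr2k, Fkbp2, Setd6 and RGD1559909, named here after their values were seen. Crb3, a polarity protein of epithelial cells, measured 31.8 to 41.8 CPM (median 36.9) in Ta, 39.6, 39.9, 41.0 and 42.0 CPM in W 1-4 and 54.2, 55.4, 53.7 and 62.8 CPM in W 5-8. Its log2 fold change was 0.15 in W 1-4 and 0.63 in W 5-8, a difference of -0.48 ± 0.11 (SE; adjusted p = 0.033).

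Genes picked here for near-equal changes in both W subsets were Cox7c (0.62 in W 1-4 and 0.55 in W 5-8 on the log2 scale), Immp1l (0.56 and 0.58), Ndufa1 (0.54 and 0.56), Mrps21 (0.53 and 0.53), Ptger1 (-0.47 and -0.42) and Casz1 (-0.62 and -0.55). The SEs of these values were 0.13 to 0.18. The SE of the difference between the subsets was 0.15 to 0.21.

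**Figure D2:**
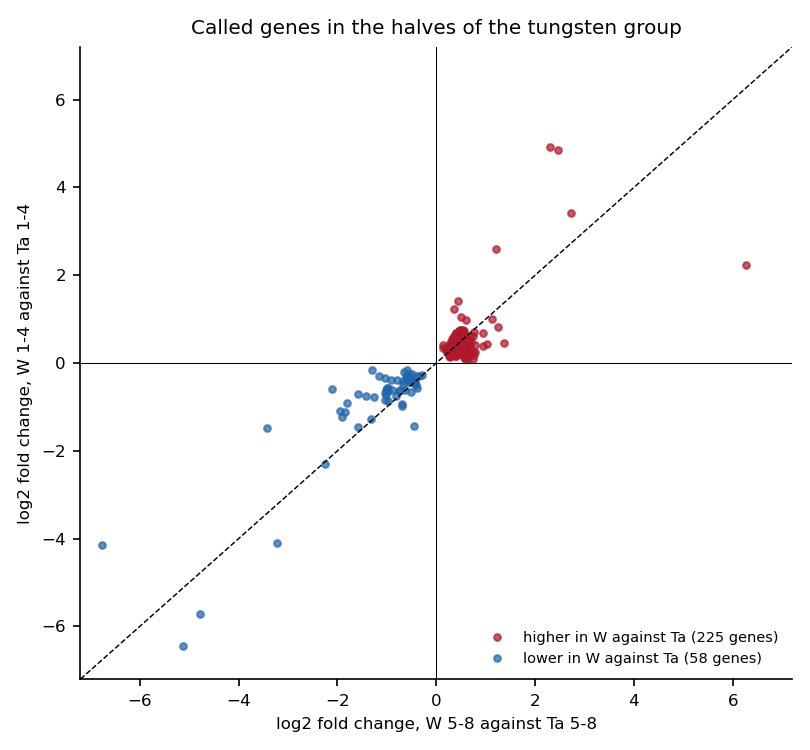
Log2 fold changes of the 283 genes called in W against Ta, W 5-8 against Ta 5-8 on the horizontal axis and W 1-4 against Ta 1-4 on the vertical axis, 1 point per gene; the dashed line marks equal values. All 283 points lie in the lower left or upper right quadrant, 196 of them with an unadjusted p under 0.05 on both axes.

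Genes of the respiratory chain encoded in the nucleus build the complexes of oxidative phosphorylation together with the mitochondrially encoded subunits. By number they held the most calls of the 45 lists. Of 68 tested members 15 rose in W against Ta and 0 fell. That is 22.1%, below the 26.7% of the mitochondrial chaperone list and above the 1.42% of all tested genes. The median log2 fold change was 0.34, with 0.26 in W 1-4, where 67 of 68 members were above 0, and 0.42 in W 5-8, where 39 rose and 0 fell, against 8.17% of all tested genes higher there. Their mean log2 CPM was 7.12 to 7.57 in Ta, 7.63 to 7.79 in W 1-4 and 7.73 to 7.96 in W 5-8, so all 8 W libraries were above all Ta libraries. Members with the smallest p were Cox7c, Ndufa1, Ndufa3 and Ndufa7 (log2 fold change 0.42, adjusted p = 0.032). None of the 13 mitochondrially encoded genes passed in W against Ta or in either subset. Their median log2 fold change was 0.21, and ND3, a complex I subunit, came nearest (log2 fold change 0.68 ± 0.19 (SE), adjusted p = 0.051). Mitochondrial ribosomal proteins, a family picked by symbol after the calls were seen, had 12 of 78 tested members higher and 0 lower in W against Ta, and 50 higher and 0 lower in W 5-8.

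The calls among ribosomal, proteasome and spliceosome genes in W against Ta were all higher, where 1.42% of all tested genes were. Among cytosolic ribosomal proteins 5 of 75 tested members rose in W against Ta and 0 fell, with a median of 0.24 (0.15 in W 1-4, 0.34 in W 5-8). Beside Rps29 these included Rps21, at 76.2 to 114 (median 93.3) CPM in W against 47.2 to 73.1 CPM (median 64.4) in Ta, and Rps28 (log2 fold change 0.58 and 0.61, adjusted p = 0.046 and 0.048). Of 31 proteasome subunits 4 rose and 0 fell, namely the catalytic subunits Psmb7 (0.36) and Psmb5 (0.36), the ATPase Psmc5 (0.33) and Psmd6 (0.28), with adjusted p of 0.031 to 0.048. Psmb7 measured 96.8 to 119 CPM (median 105) in Ta, 128.7, 118, 116 and 130.3 CPM in W 1-4 and 154, 146, 135.9 and 158 CPM in W 5-8, where every value was above the Ta range. In W 5-8, 21 of the 31 subunits rose, against 8.17% of all tested genes. Small proteins of the spliceosome had 3 of 19 members higher, Snrnp25 (0.63), Snrpg (0.62) and Snrpd2 (0.44), and 13 of 19 in W 5-8. The ribosomal balance given above, itself built partly from the ribosomal list, was higher in 3 of the W 5-8 libraries than in any Ta library, and with it in the model 4 of the 61 named calls were kept. The size of the change moved little for some lost calls, such as Atp10d (-1.02 with it, -1.005 without), Speg (-1.13 and -1.28) and Cox7c (0.47 and 0.59), and more for others, such as Snrpd2 (0.24 and 0.44).

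Chaperones fold proteins in separate compartments, and each compartment has its own stress response. In the endoplasmic reticulum the unfolded protein response acts partly through ATF6, which binds the ER stress element with NF-Y, and in the cytosol and mitochondria chaperone genes can be induced through heat shock elements bound by HSF1. Of 23 tested genes of endoplasmic reticulum chaperones 3 rose in W against Ta, Hspa5, Creld2 and Manf, and 0 fell, where 1.42% of all tested genes rose. The list was mixed, with 16 log2 fold changes above 0 and 7 below. In W 5-8, 8 of its genes rose and 3 fell, against 8.17% and 9.07% of all tested genes, and in W 1-4 0 passed. Its median was 0.06 in W 1-4 and 0.27 in W 5-8. Of 15 mitochondrial genes of chaperones, proteases, prohibitins and import subunits 4 rose: the chaperone Hspe1, the cochaperone Grpel1, the prohibitin Phb2 and the import subunit Tomm7. Of 25 cytosolic chaperones 1 rose (4.0%), Ahsa1, an activator of HSP90. In W 5-8, 8 of the mitochondrial and 8 of the cytosolic genes rose and 0 of either fell. In W 1-4, 0 of either passed. Both elements were searched on both strands in RefSeq promoter windows of rat build GRCr8, from 250 bases before to 50 bases after each start. The ER stress element was read as CCAAT, any 9 bases and CCACG, and the heat shock element as GAA, TTC and GAA, or TTC, GAA and TTC, with any 2 bases between the triplets. Windows of 7 of 18 endoplasmic reticulum chaperone genes held the ER stress element, against 0.0765% of all 27457 windows and 0.141% of the 12023 windows of tested genes. The heat shock element was in those of 2 of 12 genes of the mitochondrial list and 4 of 20 cytosolic chaperone genes, against 0.736% of all windows and 0.449% of those of tested genes, and Ahsa1 had no match. The stretches of 160 bases before the start are shown for 3 of the called genes because they hold such a match, in capitals: Hspa5 at chr3:38452856-38453015 (plus strand), Creld2 at chr7:121789224-121789383 (plus strand) and Hspe1 at chr9:64084167-64084326 (plus strand), each 5′ to 3′ on the strand of its gene.
Hspa5: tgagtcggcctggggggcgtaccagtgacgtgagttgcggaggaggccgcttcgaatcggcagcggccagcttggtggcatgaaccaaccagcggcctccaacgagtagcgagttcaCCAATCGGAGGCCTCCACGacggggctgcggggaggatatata
Creld2: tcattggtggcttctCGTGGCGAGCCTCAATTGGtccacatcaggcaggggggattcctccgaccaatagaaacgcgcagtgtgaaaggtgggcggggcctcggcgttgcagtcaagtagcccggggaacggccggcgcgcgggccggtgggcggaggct
Hspe1: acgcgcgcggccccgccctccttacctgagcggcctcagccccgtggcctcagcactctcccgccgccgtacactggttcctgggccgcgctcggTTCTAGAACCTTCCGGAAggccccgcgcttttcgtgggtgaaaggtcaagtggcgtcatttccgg
In Creld2 the match lies on the opposite strand, and in Hspe1 overlapping matches share 1 run of capitals. A match is a description of the letters, and among the 187 windows of genes called higher 2 held an ER stress element and 1 a heat shock element.

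Hspa5 (BiP), the main chaperone of the endoplasmic reticulum, measured 438 to 501 CPM (median 476) in Ta, 524, 537, 584 and 713 CPM in W 1-4 and 631, 484, 664 and 696 CPM in W 5-8. All W libraries but replicate 6 were above the Ta range, and the log2 fold change was 0.35 ± 0.09 (SE; adjusted p = 0.045). Creld2, a disulfide isomerase of the same compartment, was at 39.0 to 71.9 (median 46.8) CPM in W against 31.7 to 47.7 CPM (median 33.6) in Ta (log2 fold change 0.50, adjusted p = 0.035), and Manf, a secreted stress protein, rose by 0.47 (adjusted p = 0.046). Hspe1, the HSP10 partner of mitochondrial HSP60, was at 236, 217, 210.0 and 235 CPM in W 1-4 and 291, 224, 227 and 241 CPM in W 5-8, against 119 to 185 CPM (median 160.5) in Ta, so that every W library was above every Ta library (adjusted p = 0.036). Atf6 itself was not called in W against Ta, but was lower in W 5-8, at 7.38, 7.97, 7.81 and 11.6 CPM, than in W 1-4, at 22.4, 20.6, 22.2 and 19.0 CPM (difference 1.27 ± 0.31 (SE), adjusted p = 0.033). Ddit4, which restrains mTORC1 under stress, was the 1 called gene of 16 tested in the integrated stress response list, with a log2 fold change of 0.60 (adjusted p = 0.048), and Txn1, thioredoxin, the 1 called of 24 NRF2 and glutathione genes, with 0.46 (adjusted p = 0.043).

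Lists of vessel wall, glomerulus and matrix genes had negative medians in W against Ta, with few or no members past the test, and more of their members fell in W 5-8. In bulk RNA fewer cells of a type and less RNA per cell cannot be told apart. The ribosomal balance was 1.16 to 2.07 in Ta and 2.00 to 2.49 in W 5-8, and its part in the changes of these lists was not tested. Of 21 genes of smooth muscle and pericytes, the contractile cells around vessels, 3 fell in W against Ta and 0 rose, against 0.366% of all genes lower, with a median of -0.77. Acta2, smooth muscle actin, measured 60.0 to 89.7 CPM (median 70.2) in Ta, 34.7, 41.1, 56.0 and 29.6 CPM in W 1-4 and 32.3, 39.0, 24.9 and 39.4 CPM in W 5-8. Its groups did not overlap, and it changed by -0.94 ± 0.26 (SE; adjusted p = 0.0495). Tagln, an actin-binding protein of the same cells, had a log2 fold change of -1.10 (adjusted p = 0.045). In W 5-8, 13 of the 21 fell, against 9.07% of all tested genes, and the median was -1.077 against -0.46 in W 1-4. The mean log2 CPM of the list was 4.02 to 4.88 in Ta, 3.62 to 4.05 in W 1-4 and 2.81 to 3.17 in W 5-8.

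Podocytes, the filtering epithelium of the glomerulus, had 0 of 18 genes past the test in W against Ta, but all 18 had a negative log2 fold change, with a median of -0.64, where the median of all genes was -0.03. In W 5-8, 10 of the 18 fell (median -0.97), against 9.07% of all tested genes. In W 1-4 the median was -0.41 with 17 of 18 below 0. The medians of all tested genes were -0.042 in W 5-8 and -0.025 in W 1-4. The mean log2 CPM of the list was 4.35 to 4.79 in Ta, 4.07 to 4.501 in W 1-4 and 3.25 to 3.91 in W 5-8. Synpo, an actin organiser of foot processes, measured 41.4 to 66.0 CPM (median 54.6) in Ta, 30.4, 34.1, 50.8 and 33.6 CPM in W 1-4 and 20.9, 21.3, 12.1 and 16.04 CPM in W 5-8 (W 5-8 against Ta: -1.64, adjusted p = 0.006). Nephrin, Nphs1, was at 10.9, 30.7, 19.4 and 13.5 CPM in W 5-8 against 16.3 to 75.5 CPM (median 47.7) in Ta, ranges that overlap (adjusted p = 0.038). Matrix genes had 1 of 36 lower in W against Ta, Eln, against 0.366% of all tested genes. In W 5-8, 23 of 36 were lower, against 9.07% of all tested genes, and the median was -1.36 against -0.33 in W 1-4. Col6a3, a chain of collagen VI, was at 5.69, 13.3, 6.70 and 17.0 CPM in W 5-8, 66.6, 85.9, 69.2 and 46.97 CPM in W 1-4 and 40.0 to 155 CPM (median 63.3) in Ta (difference between subsets 2.65 ± 0.62 (SE), adjusted p = 0.032).

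Few immune genes passed in W against Ta, and 3 of the Ta kidneys, replicates 4, 5 and 6, were high for the macrophage and lymphocyte lists. Of 24 macrophage and dendritic cell genes 3 fell, Lat2, Inpp5d and Flt3, and of 26 lymphocyte genes 2 fell, Itgb7 and Gimap6, against 0.366% of all tested genes, with 0 higher in either list. None of 17 antigen presentation, 20 interferon response or 21 chemokine, alarmin and NF-kB genes passed, with medians of -0.33, -0.12 and -0.49. The mean log2 CPM of the macrophage list was 2.49 to 4.85 in Ta, 2.77 to 3.83 in W 1-4 and 1.01 to 2.97 in W 5-8. The part of these cell markers in the other differences was not tested. Lat2, an adaptor of immune receptors, measured 1.31 to 5.92 CPM (median 2.38) in Ta, 0.531, 2.36, 0.664 and 0.466 CPM in W 1-4 and 0.178, 0.693, 0 and 0.364 CPM in W 5-8 (log2 fold change -2.24 ± 0.52 (SE), adjusted p = 0.032). Flt3, a receptor of dendritic cell precursors, reached 17.6 CPM in Ta replicate 4, while the other Ta libraries were at 0.888 to 7.14 CPM and W at 0.934 to 2.94 (median 2.23) CPM. Ta replicates 4 and 6 also led for Itgb7, at 16.4 and 10.4 CPM, and for the leukocyte antigen Ptprc, at 53.5 and 29.0 CPM. Without Ta replicates 4, 5 and 6 none of these 5 genes passed, and their log2 fold changes were -1.41 (Lat2), -1.02 (Inpp5d), -0.59 (Flt3), -0.29 (Itgb7) and -1.15 (Gimap6), against -2.24, -1.43, -1.52, -1.502 and -1.26 with all libraries. Adgre5, an adhesion receptor of leukocytes outside these lists, had a log2 fold change of -0.84 (adjusted p = 0.033).

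**Figure D3:**
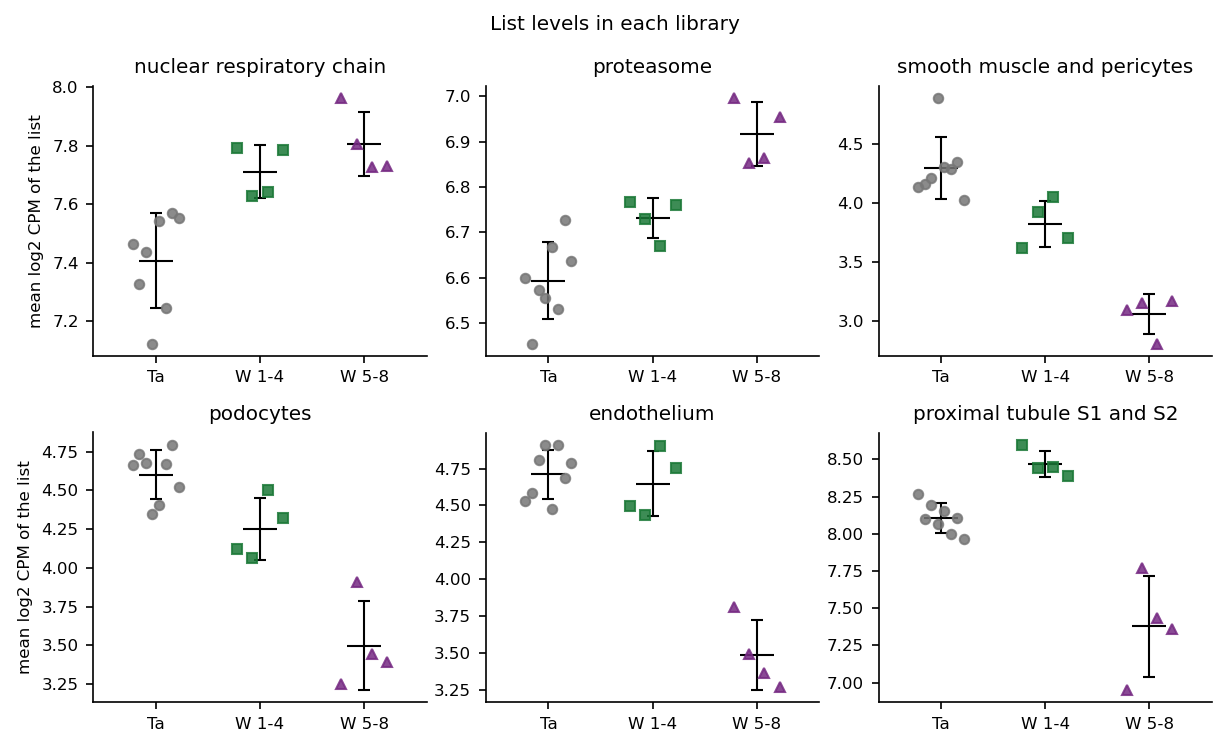
Mean log2 CPM of 6 gene lists (vertical axis) in each library of Ta, W 1-4 and W 5-8; points are libraries, and bars are the mean with the SD. The respiratory chain list is above the Ta range in all W libraries, whereas the endothelium list is below the Ta range in all of W 5-8 and in 1 library of W 1-4.

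Endothelial genes held the most differences within the tungsten group of the 45 lists, 7 of 21 being higher in W 1-4 than in W 5-8, against 1.14% of all tested genes. The mean log2 CPM of the list was 4.48 to 4.91 in Ta, 4.44 to 4.90 in W 1-4 and 3.27 to 3.81 in W 5-8. None of the 21 passed in W against Ta, while 15 fell in W 5-8, against 9.07% of all tested genes, and 0 in W 1-4. The median log2 fold change was -1.27 in W 5-8 and -0.08 in W 1-4. Kdr, the VEGF receptor 2 of endothelial cells, measured 35.5 to 47.1 CPM (median 43.0) in Ta, 39.5, 41.6, 56.3 and 47.4 CPM in W 1-4 and 4.63, 7.45, 5.71 and 5.86 CPM in W 5-8. The difference between the subsets was 2.96 ± 0.67 on the log2 scale (SE; adjusted p = 0.029). Esm1, a proteoglycan of activated endothelium, was at 1.16, 0.866, 0.575 and 1.21 CPM in W 5-8, 22.2, 13.7, 16.1 and 17.1 CPM in W 1-4 and 11.3 to 20.0 CPM (median 15.5) in Ta (difference 4.17 ± 0.86 (SE), adjusted p = 0.021). Tek and Eng, receptors for angiopoietins and TGF-beta ligands on these cells, differed by 2.12 and 1.65, and Epas1 (HIF-2 alpha), abundant in endothelium, by 1.36 (adjusted p = 0.032, 0.039 and 0.03). Nostrin, which binds endothelial nitric oxide synthase, differed by 1.198 (adjusted p = 0.012). In the stroma, Pdgfrb, the PDGF receptor of pericytes and fibroblasts, was at 4.76, 3.26, 2.96 and 3.98 CPM in W 5-8, 20.6, 33.1, 28.5 and 26.9 CPM in W 1-4 and 23.7 to 72.0 CPM (median 32.6) in Ta. It was the lower gene with the smallest p in W 5-8 against Ta (-3.28 ± 0.56 (SE), adjusted p = 0.00083), and the subsets differed by 2.87 (adjusted p = 0.021). Dpt, a matrix protein of fibroblasts, differed by 3.23 and Dock4, a Rac activator, by 1.71 (adjusted p = 0.021 for both).

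Genes of the early proximal tubule lay higher in W 1-4 and lower in W 5-8. Of 29 genes of segments S1 and S2, 1 rose in W against Ta, Slc17a1, a phosphate and urate transporter (116 to 171 (median 148) CPM against 84.2 to 118 CPM (median 106) in Ta, adjusted p = 0.032). In W 1-4, 28 of 29 log2 fold changes were above 0 (median 0.34), none past the test, and in W 5-8, 7 genes fell and 2 rose, against 9.07% and 8.17% of all tested genes (median -0.29). The mean log2 CPM of the list was 7.97 to 8.27 in Ta, 8.39 to 8.60 in W 1-4 and 6.95 to 7.77 in W 5-8, without overlap between these sets. Slc6a19, the neutral amino acid transporter of the brush border, was at 2.67, 13.9, 6.90 and 3.92 CPM in W 5-8, 78.002, 71.4, 49.8 and 42.7 CPM in W 1-4 and 27.8 to 64.9 CPM (median 41.4) in Ta (difference 3.14 ± 0.75 (SE), adjusted p = 0.033). Slc5a12, a lactate transporter, was at 1.33, 8.94, 0.699 and 9.17 CPM in W 5-8 and 72.1, 77.7, 50.3 and 46.5 CPM in W 1-4, against 20.6 to 56.3 CPM (median 33.5) in Ta (adjusted p = 0.039 between subsets). Slc15a1, a peptide transporter, was at 0, 0.485, 0.986 and 0.486 CPM in W 5-8 and 20.2, 12.3, 11.4 and 16.1 CPM in W 1-4 (difference 4.91 ± 1.02 (SE), adjusted p = 0.021). Slc34a3, a sodium phosphate cotransporter, was at 3.34, 33.2, 13.8 and 15.4 CPM in W 5-8, 133.6, 134.2, 121.3 and 126.1 CPM in W 1-4 and 57.6 to 103.3 CPM (median 75.7) in Ta. Every W 1-4 library was above and every W 5-8 library below the Ta range, yet the difference between subsets had an adjusted p of 0.055. The most abundant phosphate transporter, Slc34a1, overlapped with Ta in W 5-8 (2477, 2957, 2742 and 1621 CPM against 2346 to 3239 CPM (median 3001)) and was not called. Among genes of vitamin D and phosphate handling 0 of 13 passed in W against Ta and 4 fell in W 5-8. Xpr1, a phosphate exporter, differed between the subsets by 0.997 and Cyp27b1, which activates vitamin D and lay at 0.395 CPM or less in W 5-8, by 4.10 (adjusted p = 0.033 and 0.045). Susd2 and Ca14, the latter a membrane carbonic anhydrase, each differed by 1.6 (adjusted p = 0.022 and 0.023).

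**Figure D4:**
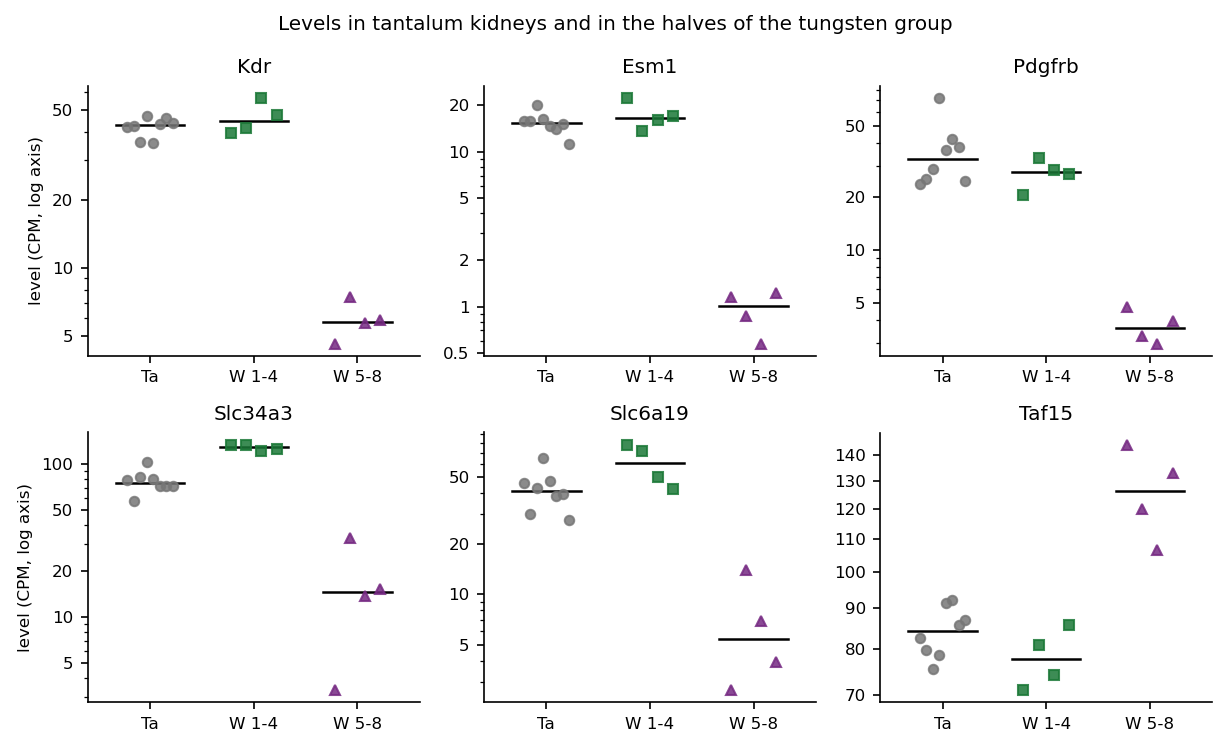
Levels in CPM on a log axis (vertical) of 6 genes in each library of Ta, W 1-4 and W 5-8; points are libraries, and lines are medians. The levels of Kdr, Esm1, Pdgfrb, Slc34a3 and Slc6a19 in W 5-8 lie below every other library, and Taf15 lies above.

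The 8 genes higher in W 5-8 than in W 1-4 with the smallest p differed by less than the 8 higher in W 1-4. Taf15, an RNA-binding protein of the FET family, measured 75.5 to 92.0 CPM (median 84.1) in Ta, 70.9, 80.9, 74.2 and 85.6 CPM in W 1-4 and 144.3, 119.9, 106 and 133 CPM in W 5-8. It had the smallest adjusted p in W 5-8 against Ta (1.8e-05, log2 fold change 0.58 ± 0.08 (SE)) and between the subsets (1.7e-05, -0.69 ± 0.09 (SE)). It was the only one of 40 named genes differing between subsets whose call held whichever single library was left out. Snrnp70, of the U1 spliceosomal particle, was at 376, 343, 317 and 351 CPM in W 5-8 and 234, 234, 227 and 256 CPM in W 1-4, and Sart1, of the U4/U6.U5 particle, differed by -0.46 (adjusted p = 0.012 and 0.021). The mitochondrial ribosomal protein Mrps26 differed by -0.54, the histone H2aj, one of a family with near-identical copies, by -0.66, the transcription factor Usf1 by -0.51, Mien1 by -0.70 and Cystm1 by -0.61, all past the test. Cenpx, a centromere and DNA repair protein, was among the 8 higher genes with the smallest p in W 5-8 against Ta, at 17.1, 18.6, 16.5 and 20.7 CPM against 7.63 to 13.1 CPM (median 10.9) in Ta (adjusted p = 0.001). Lower genes with the smallest p there, beside Pdgfrb, Speg and Dock4, were the cytoskeletal genes Raph1 (-1.11), Clasp2 (-0.88) and Map4 (-0.61), Acap2 (-1.03) and Zcchc3 (-1.07), with adjusted p of 0.0011 to 0.002. The 16 genes named for W 5-8 against Ta passed whichever single library was left out, and without W replicates 5 and 7 together Acap2, Map4 and Dock4 did not. Of the 266 genes that differed between the subsets, 234 were also called in W 5-8 against Ta, where 17.2% of all tested genes were. For 193 of the 266, W 1-4 and W 5-8 lay on opposite sides of Ta by sign. Of all tested genes, 67.2% had the sign of W against Ta in both subsets. For 256 of the 266 the libraries of the subsets did not overlap, a share not counted over all tested genes. The 266 were selected on the difference between these same libraries, so these counts describe the selected genes and are not a separate test.

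**Figure D5:**
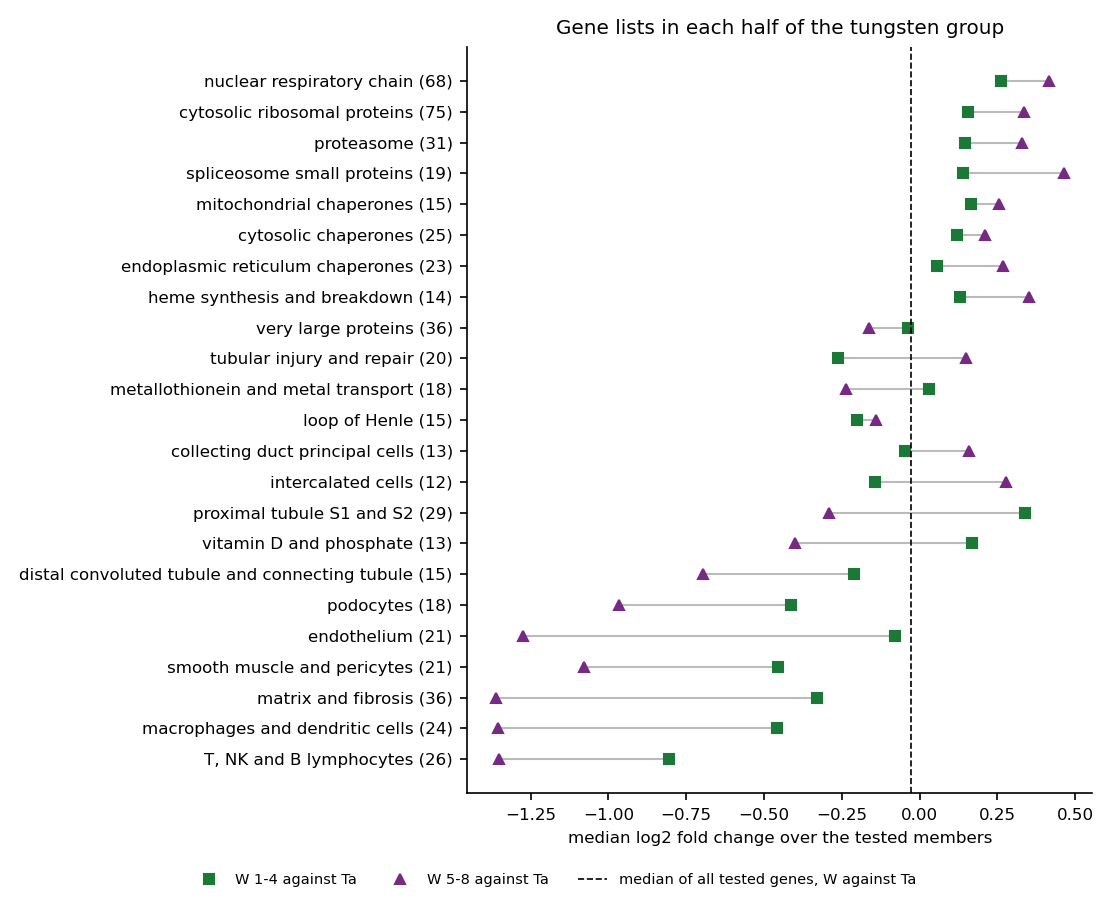
Median log2 fold change (horizontal axis) of 23 gene lists in W 1-4 and in W 5-8, each against Ta, with the number of tested members in parentheses; the dashed line is the median of all genes in W against Ta. The respiratory chain, ribosomal and proteasome lists lie to the right of it in both subsets, and endothelium lies near the line in W 1-4 and at -1.27 in W 5-8.

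Of 20 tubular injury and repair genes 0 passed in edgeR's test of W against Ta. Havcr1 (KIM-1), shed by injured proximal tubule, spanned 4.27 to 77.2 (median 16.02) CPM in W and 3.86 to 97.5 CPM (median 20.5) in Ta (log2 fold change -0.41 ± 0.73 (SE), adjusted p = 0.77). Lcn2 (NGAL), a marker of distal injury, spanned 5.87 to 79.6 (median 8.77) CPM in W and 5.10 to 124.8 CPM (median 13.4) in Ta (adjusted p = 0.78). The highest values of both were in Ta replicate 4 and W replicate 8, and the spread within a metal exceeded the difference between metals. Spp1, Clu, Timp1, Hmox1, Nqo1, Cdkn1a, Umod and Cyp24a1 had log2 fold changes between -0.65 and 0.10, with adjusted p of 0.20 or more. Of 18 metallothionein and metal transport genes 0 passed, in W against Ta or in either subset. Metallothionein Mt1, which binds zinc, copper and cadmium, was at 491, 534, 370.4 and 494 CPM in W 1-4, 85.8, 290.5, 260.3 and 293 CPM in W 5-8 and 274 to 486 CPM (median 375) in Ta (W against Ta -0.13 ± 0.32 (SE), adjusted p = 0.85), and Mt2A had a log2 fold change of 0.09 ± 0.33 (SE; adjusted p = 0.89). These SEs leave room for changes in either direction.

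The remaining lists held few calls. Srebf2, the master regulator of cholesterol synthesis, was the 1 gene of 23 in its list to pass, with a log2 fold change of -0.37 (43.8 to 58.9 (median 51.1) CPM in W against 53.9 to 73.01 CPM (median 63.7) in Ta, adjusted p = 0.046). Aldh1a2, which makes retinoic acid, was the 1 of 14 retinol genes, with -1.06 (adjusted p = 0.046). Heme genes had 0 of 14 past the test in W against Ta and 7 higher in W 5-8, against 8.17% of all tested genes, with a median there of 0.35. None of 15 loop of Henle, 15 distal and connecting tubule, 13 principal cell or 12 intercalated cell genes passed in W against Ta, nor any of 20 interferon response, 20 cell cycle, 18 immediate early, 16 circadian clock or 16 hypoxia genes. With 1.78% of all tested genes past the test, 0 calls in lists of this size do not show them unchanged. In the distal and connecting tubule list 14 of 15 log2 fold changes were below 0 (median -0.44), and in W 5-8 all 15 were (median -0.70). All 12 intercalated cell genes were higher in W 5-8 than in W 1-4, with 0 past the test of that difference.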

How the data were processed

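RNA was extracted with TRIzol, treated with DNase and checked for integrity on a Bioanalyzer, per the labels' protocols. The authors deposited raw counts for each gene, made with STAR 2.7.2a, the mRatBN7.2 genome and featureCounts of Subread 1.6.4, per the submitters' processing notes. The annotation, strand setting and treatment of reads with several matches are not given in the sources used here, so genes with near-identical copies or an antisense partner are uncertain. The table has 29 lines without a usable gene row, from 5 very long genes whose coordinate text breaks over several lines, and these were not read. Of the 22525 gene symbols 18641 (82.8%) were found in the RefSeq table.

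Counts of all 47 libraries were fitted with edgeR 4.0.16 under R 4.3.3 (filterByExpr, TMM factors, quasi-likelihood F test, two-sided, Benjamini-Hochberg threshold 0.05), first with 6 metal groups and then with W divided into replicates 1-4 and 5-8. The common dispersion was 0.124. CPM use TMM-scaled totals, and list levels are means of log2 CPM with a prior count of 2. The series description gives 8 rats per metal, and each library was taken as 1 rat. Depth sets only counting error, which weighs on genes near 1 CPM; the tests use the spread between animals. No W library was a copy of another W library, nor any Ta library of another Ta library. Chi-square divided by its degrees of freedom was at least 15.8 in all 56 pairs within these groups, and other pairs were not checked. The fits were also run on simulated counts, drawn independently for each library without outlying libraries or a shift in RNA composition. That run does not bear on how far the calls depend on single libraries.

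The members, the division of W and the 45 gene lists were chosen with earlier results of these data known. Lists are described by counts and medians, with no test of the list. Genes were named by a rule (mean of at least 1 CPM, no provisional symbol): the 12 higher and 12 lower with the smallest p and the 8 and 8 with the largest change in W against Ta, the 8 and 8 with the smallest p in W 5-8 and between the W subsets, up to 4 per list by p in W against Ta and up to 3 by p between the subsets, and a panel of 14 genes. Examples outside it (Nphs1, Ptprc, Slc34a1, and the RefSeq promoter stretches) were chosen after their values were seen. Other settings were DESeq2 1.42.0, RLE factors, no filter, a filter of 1 CPM in 8 libraries, W and Ta libraries only, replicate numbers as a block, the ribosomal balance in the model, separate Ta controls, a fold of at least 1.5, and fits without each library or without Ta replicates 4, 5 and 6. A fit without W replicates 5 and 7 was added after seeing the data. Protein lengths were not used here.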

Additional observations from a re-analysis of the deposited data

Results flagged for a closer look

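In 11 cases 1 library stood apart from the other 7 of its metal by Dixon's criterion. The 38 genes named for W against Ta and the 45 gene lists give 166 groups of 8 libraries, and chance alone marks about 1 group in 20. W replicate 5 was the lowest of its group for Arid1b (5.23 log2 CPM), Inpp5d (-0.35), the mean of the NRF2 and glutathione list (7.37) and that of the cholesterol synthesis list (3.79). Ta replicate 4 was the highest of its group for Rarg (5.11 log2 CPM), the smooth muscle and pericyte list (4.88) and the urothelium list (3.76), and the lowest for the lists of proximal tubule S3 (6.26) and intercalated cells (6.41). Ta replicate 3 was the highest for Speg (3.52) and Ta replicate 2 for Zmym4 (5.22).

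The naming rule took, in each direction, the 8 genes with the smallest p between W 1-4 and W 5-8 among those past that test. That these 16 passed was therefore set by the rule, and 40 named genes in all passed this test. The log2 fold changes of W 1-4 against W 5-8 were above 0 for Nostrin (1.2), Dpt (3.23), Pdgfrb (2.87), Dock4 (1.71), Esm1 (4.17), Slc15a1 (4.91), Susd2 (1.6) and Ca14 (1.6). They were below 0 for Taf15 (-0.69), Snrnp70 (-0.54), Mrps26 (-0.54), H2aj (-0.66), Sart1 (-0.46), Mien1 (-0.7), Usf1 (-0.51) and Cystm1 (-0.61).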

How the results depend on the processing

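The count of genes called in W against Ta was 283. It was 764 with DESeq2, 117 with no filter, 562 with a filter of 1 CPM in 8 libraries, 67 at a fold of at least 1.5, 8 with the ribosomal balance in the model as a covariate, 1 without Ta replicates 4, 5 and 6 and 5 without W replicates 5 and 7 (added after seeing the data). Leaving out 1 library gave 5 to 604. In a fit of W and Ta libraries only it was 277, which held 49.1% of the 283. The 0 calls of W 1-4 against Ta became 7 with DESeq2, 14 with W and Ta libraries only and 6 with the covariate, and stayed at 0 to 0 without single libraries. For W 5-8 against Ta the 2736 calls became 1125 with the covariate, 421 against Ta 5-8 alone, 1695 without Ta replicates 4, 5 and 6, 93 without W replicates 5 and 7 and 636 to 3027 without single libraries. The 266 calls between W 1-4 and W 5-8 became 743 with DESeq2, 165 with no filter, 1028 with W and Ta libraries only, 35 with the covariate, 8 without W replicates 5 and 7 and 1 to 295 without single libraries. The number of W against Ta calls that passed in both W subsets, 0, became 3 with DESeq2, 9 with W and Ta libraries only, 1 with the covariate and 216 by unadjusted p, and was 0 to 0 without single libraries. With the replicate number as a block the calls were 317 (W against Ta), 0 (W 1-4 against Ta), 968 (W 5-8 against Ta) and 1 (between the subsets). Residuals of the 8 same-numbered W and Ta pairs had a median correlation of -0.0312 (-0.206 to 0.0392), against 0.00338 for other W and Ta pairs. In this check 1 W library correlated best with its own number. Libraries of the other metals were not part of it, so an effect of the number shared across metals was not tested. The cause of these shifts was not tested. Of the named genes called in any of the comparisons, none changed sign in the settings where its sign was read. This reading left out the separate Ta controls, and with DESeq2 it covered 60 of the 61 named calls in W against Ta. Depth limits only genes near 1 CPM, such as Chchd2, Lat2 and Hap1.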

Other observations

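Single genes of other lists differed between the W subsets without being called in W against Ta, 1 of 18 complement and fibrinogen genes, 2 of 15 renin-angiotensin and peptidase genes and 1 of 24 NRF2 and glutathione genes, where 1.14% of all tested genes were higher in W 1-4. C7, a late complement component made in the kidney stroma, was at 8.99, 18.1, 10.6 and 13.2 CPM in W 5-8, 96.8, 201, 124.96 and 94.9 CPM in W 1-4 and 52.3 to 474 CPM (median 81.9) in Ta (difference between subsets 3.34 ± 0.83 (SE), adjusted p = 0.033). Agtr1a, the main angiotensin II receptor, was at 4.63, 5.58, 2.10 and 4.53 CPM in W 5-8 and 18.8, 16.4, 15.3 and 12.6 CPM in W 1-4 (adjusted p = 0.028). Dpep1, a brush border dipeptidase, was at 4.49, 3.36, 4.31 and 5.38 CPM in W 5-8 and 30.7, 37.0, 35.5 and 27.8 CPM in W 1-4 (adjusted p = 0.03), and Gpx3, the plasma glutathione peroxidase made by proximal tubule, at 1016, 2530.0, 1643 and 2076 CPM in W 5-8 and 6686, 6087, 5580.2 and 5427 CPM in W 1-4 (adjusted p = 0.039). For all 4 genes the W 5-8 libraries lay below every Ta library. Vcam1, listed among injury genes and also made by endothelium and stroma, was at 4.32, 6.96, 2.22 and 5.19 CPM in W 5-8 against 16.8, 24.4, 16.6 and 13.3 CPM in W 1-4 (adjusted p = 0.045). Phgdh, the entry enzyme of serine synthesis, was at 8.45, 44.7, 15.7 and 22.7 CPM in W 5-8 and 102.5, 83.3, 77.4 and 76.8 CPM in W 1-4 (adjusted p = 0.039).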
